A study of Homo sapiens with 6 samples.

Results

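TLE3 regions called in only one of the control libraries made up 34022 of the 72272 merged TLE3 regions of the series (47.1%). TLE3 binding was mapped by chromatin immunoprecipitation and sequencing in MDA-MB-453, an established human breast cancer cell line with luminal and apocrine features. Cells with transient silencing of FOXA1 (siFOXA1) gave 2 libraries, and cells labelled siNS, without that silencing, gave 2 control libraries, all of the same line and labelled as biological replicates. The 2 input libraries, whose labels name the line MDA-MB-454, were not analysed here. The series asks whether TLE3 binding needs FOXA1. Each library has its own peak list on hg38. Peaks of the 4 lists on chromosomes 1 to 22 and X were merged where they shared at least 1 bp. Members were chosen by the peak calls themselves: a merged region was taken when it held peaks of exactly 1 list, and that list was siNS 1 or siNS 2. Peak calls, scores and widths are therefore given as a description. This gave 18766 regions of siNS 1 alone and 15256 of siNS 2 alone, each made of a single peak.

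TLE3 belongs to the Groucho family of corepressors. These proteins have no DNA-binding domain of their own and reach chromatin through transcription factors such as HES, RUNX, TCF/LEF and forkhead proteins, where they recruit histone deacetylases. FOXA1 is a forkhead factor that opens chromatin at distal enhancers of luminal breast cells.

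The promoters below are shown because they lay, for each set, under the highest-scoring single-library regions that overlap a promoter window. A window runs from 250 bases before an annotated transcription start to 50 after it. Each printed sequence is the 250 bases before the start, 5′ to 3′ on the gene's strand, from RefSeq on GRCh38.p14. Matches to the 12 short motifs listed further on are in capitals. TAF11, a subunit of the general factor TFIID (chr6:34888072-34888321, minus strand), PTPN9, a protein tyrosine phosphatase (chr15:75579316-75579565, minus strand), and NDUFC2-KCTD14, a read-through transcript that begins at the respiratory complex I gene NDUFC2 (chr11:78079863-78080112, minus strand), belong to siNS 1 alone.
TAF11: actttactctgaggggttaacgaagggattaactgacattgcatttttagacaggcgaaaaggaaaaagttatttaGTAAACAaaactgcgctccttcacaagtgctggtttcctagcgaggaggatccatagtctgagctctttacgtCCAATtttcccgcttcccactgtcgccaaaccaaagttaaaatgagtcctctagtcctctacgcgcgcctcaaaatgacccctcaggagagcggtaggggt
PTPN9: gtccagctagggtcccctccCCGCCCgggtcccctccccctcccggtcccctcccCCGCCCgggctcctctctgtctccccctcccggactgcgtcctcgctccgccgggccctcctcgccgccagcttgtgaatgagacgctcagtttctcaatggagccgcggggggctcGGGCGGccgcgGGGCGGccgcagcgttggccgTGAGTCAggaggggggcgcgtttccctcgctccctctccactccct
NDUFC2-KCTD14: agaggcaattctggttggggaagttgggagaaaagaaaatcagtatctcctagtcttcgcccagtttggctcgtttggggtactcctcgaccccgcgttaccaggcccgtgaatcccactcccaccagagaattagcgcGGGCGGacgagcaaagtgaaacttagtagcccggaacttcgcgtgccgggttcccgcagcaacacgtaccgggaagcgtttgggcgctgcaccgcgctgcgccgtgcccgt
FAM107B (chr10:14572376-14572625, minus strand), BCAR3, an adaptor linked to anti-oestrogen resistance (chr1:93614098-93614347, minus strand), and CXCL13, a B-cell chemokine (chr4:77605570-77605819, plus strand), belong to siNS 2 alone.
FAM107B: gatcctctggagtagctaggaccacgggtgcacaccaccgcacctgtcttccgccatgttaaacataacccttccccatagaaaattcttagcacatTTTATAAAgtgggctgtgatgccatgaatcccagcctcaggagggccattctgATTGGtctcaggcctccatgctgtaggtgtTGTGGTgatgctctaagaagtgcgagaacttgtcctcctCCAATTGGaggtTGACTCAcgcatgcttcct
BCAR3: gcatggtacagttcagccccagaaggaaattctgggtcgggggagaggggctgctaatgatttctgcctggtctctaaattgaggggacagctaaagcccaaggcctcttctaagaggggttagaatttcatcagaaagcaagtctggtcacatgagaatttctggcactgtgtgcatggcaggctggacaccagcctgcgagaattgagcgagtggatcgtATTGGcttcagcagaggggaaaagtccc
CXCL13: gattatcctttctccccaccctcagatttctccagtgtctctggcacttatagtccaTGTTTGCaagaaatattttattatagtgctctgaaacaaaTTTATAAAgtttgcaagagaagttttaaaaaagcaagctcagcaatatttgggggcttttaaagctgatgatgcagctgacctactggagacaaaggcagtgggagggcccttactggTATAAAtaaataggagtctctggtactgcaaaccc
The 3 starts of siNS 1 alone were the outermost starts of their genes. Those of siNS 2 alone were internal starts, 202522 bp, 234054 bp and 94067 bp inside the spans of FAM107B, BCAR3 and CXCL13. The siNS 2 regions at BCAR3 and CXCL13 overlapped the window before the start and did not reach the start itself. The 300-base windows around the starts held 15 CpG dinucleotides at TAF11, 33 at PTPN9 and 29 at NDUFC2-KCTD14, against 5 at FAM107B, 7 at BCAR3 and 0 at CXCL13.

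The 2 control libraries had lists of similar length and score range. The siNS 1 list held 45105 peaks on the chromosomes used and the siNS 2 list 46586, with median scores of 9.88 and 11.98. The siFOXA1 lists held 12249 and 13754. The score is the authors' own value per peak, its definition is not stated, and it served here only to rank peaks within a list. The lists hold no read counts, so depth is unknown. Regions found in siNS 1 alone were 42.7% of the 43898 merged regions with a siNS 1 peak, and those found in siNS 2 alone were 34.6% of 44042. A further 165 siNS 1 regions and 3819 siNS 2 regions had no peak in the other control library but had one in a siFOXA1 library, and so were not members. Membership depends on which lists are compared: with siNS 2 left out, 40750 regions were found in siNS 1 alone, and with siNS 1 left out, 38454 in siNS 2 alone. Each set comes from 1 library, so the sets are described side by side with no p-value. Intervals below are exact 95% binomial intervals, which cover counting error over regions and not variation between cultures.

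The set of siNS 1 lay at the ends of genes more often than the set of siNS 2. Both lay there less often than regions of both control libraries that had no siFOXA1 peak. At most 1 kb from either end of a protein-coding gene lay 3233 regions of siNS 1 alone, or 17.2% (16.7 to 17.8%), and 1218 of siNS 2 alone, or 7.98% (7.56 to 8.43%). Of the 20732 regions with peaks of both siNS lists and of no siFOXA1 list, called shared regions here, 48.1% lay there (47.5 to 48.8%). A low share is not particular to single-library regions. Of the 2602 regions with peaks of all 4 lists, 12.1% lay at gene ends, 45.8% inside genes and 42.0% between genes. Regions inside genes and over 1 kb from their ends were as frequent in one set as in the other, 49.3% of siNS 1 alone and 48.9% of siNS 2 alone, against 29.8% of shared regions. Regions between genes were 33.5% of siNS 1 alone and 43.2% of siNS 2 alone, against 22.1% of shared regions. Over 100 kb from any protein-coding gene were 7.24% of siNS 1 alone and 13.2% of siNS 2 alone, against 3.68% of shared regions. The median distance to a gene end was 9656 bp for siNS 1 alone, 25230 bp for siNS 2 alone and 1372.5 bp for shared regions.

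**Figure D1:**
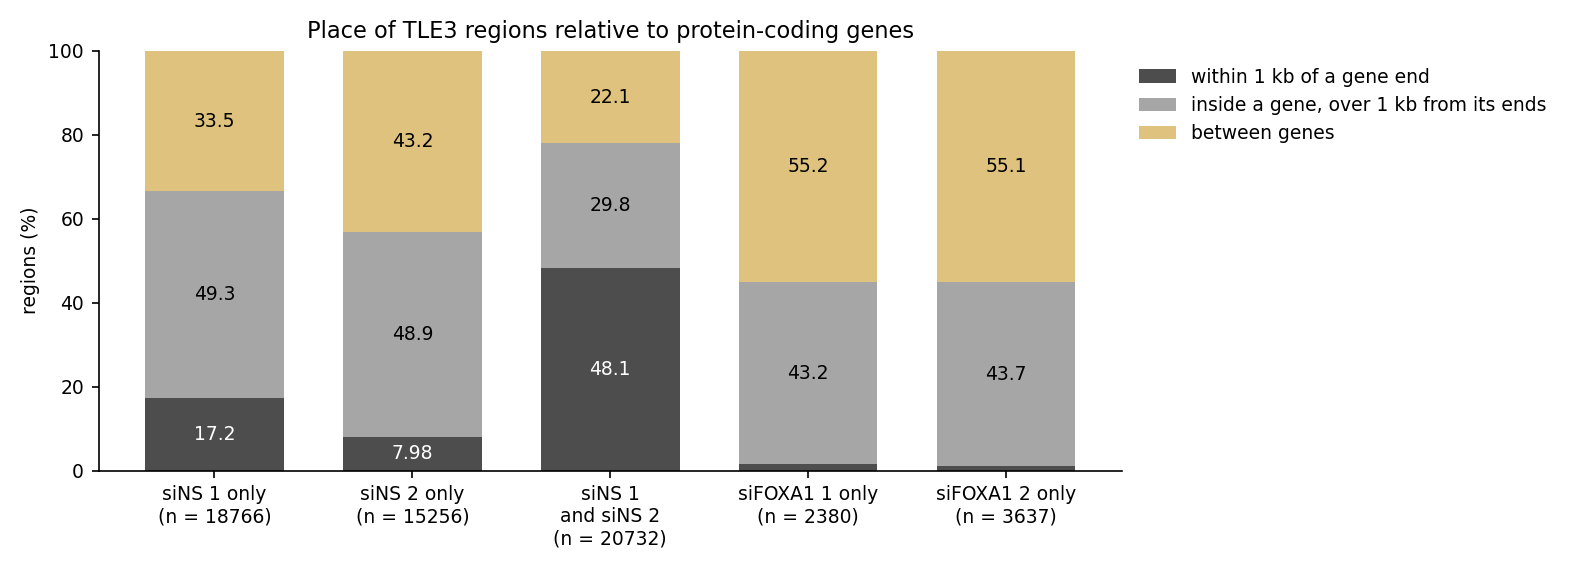
Share of TLE3 regions (percent, stacked bars) within 1 kb of a gene end, inside a gene and between genes. Bars are regions of siNS 1 alone, siNS 2 alone, both siNS libraries and no siFOXA1 library, siFOXA1 1 alone and siFOXA1 2 alone. The part at gene ends is 17.2% for siNS 1 alone and 7.98% for siNS 2 alone, against 48.1% for regions of both siNS libraries.

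The share at gene ends, single-library minus shared regions, differed by -30.9 percentage points in siNS 1 and by -40.2 in siNS 2. The same shared value, 48.1%, was subtracted in both, so the 2 differences are not independent. Nor are they matched for score or width. In the lowest 10% of the siNS 1 list by score, 14.4% of single-library and 18.6% of shared regions lay at gene ends. In the lowest 10% of the siNS 2 list the shares were 10.2% and 36.8%. A two-sided exact sign-flip permutation test over the 2 libraries gave p = 0.5, the smallest value that 2 libraries allow. Away from chromosome 8, for which no start sites were used, 11.8% of siNS 1 alone and 5.95% of siNS 2 alone lay within 1 kb of an annotated transcription start, against 43.7% of shared regions. Of the regions at a gene end, 55.3% of siNS 1 alone and 56.8% of siNS 2 alone were near a start, against 79.0% of shared regions. The promoter windows that give the starts belong to 15811 of the 19970 protein-coding genes. Starts were thus missing for genes of other chromosomes too. The shares near a start can be too low, and the rest cannot be read as lying at the far ends of genes. The excess of siNS 1 over siNS 2 at gene ends was 9.24 percentage points and was 9.26 points without chromosomes 16, 17, 19 and 22. With all lists cut to the length of the shortest by score, 65.1% of siNS 1 alone and 9.54% of siNS 2 alone lay at gene ends.

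Single-library regions of the silenced cells lay at gene ends less often still. In the siNS libraries 12.6% ± 6.54 of single-library regions were within 1 kb of a gene end, against 1.40% ± 0.391 in the siFOXA1 libraries, 1.68% of 2380 regions in siFOXA1 1 and 1.13% of 3637 in siFOXA1 2 (mean ± SD, n = 2 each). The difference of 11.2 percentage points was larger than the spread between replicates, which reached 9.24 points between the siNS libraries. Both siNS values lay above both siFOXA1 values. A two-sided exact permutation test gave p = 0.33, the smallest value for 2 against 2 libraries. Each set is what the other lists leave, so the values in this test are not independent. The lists also differed in length, with 12249 and 13754 siFOXA1 peaks against 45105 and 46586 siNS peaks. With all lists cut to the length of the shortest, the difference was 35.4 points. The difference was 31.3 points without siNS 1 and 31.8 points without siNS 2, because regions of both control libraries then count as single.

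Single-library regions were narrow and mostly low in their own lists, and the sets differed at the upper end. Widths had a median of 292 bp in siNS 1 alone (10th to 90th percentile 247 to 495 bp) and 306 bp in siNS 2 alone (244 to 520 bp), against 818 bp for shared regions, which are unions of peaks. The median score was 5.80 for siNS 1 alone, at percentile 24.7 of the siNS 1 list, and 7.14 for siNS 2 alone, at percentile 27.9 of the siNS 2 list. Shared regions had their median at percentile 70.1 of the siNS 1 list and 59.7 of the siNS 2 list. The highest score was 50.2 in siNS 1 alone and 242 in siNS 2 alone. The top 10% of the siNS 1 list held 0 single-library regions, and the top 10% of the siNS 2 list held 176.

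Each list was divided by score into 10 equal bins, from bin 1, the lowest, to bin 10. The share of a library's regions found in it alone was lower in each next bin. It was 88.6% in bin 1 of siNS 1 and 71.3% in bin 1 of siNS 2. In bin 8 it was 2.79% in siNS 1 and 14.4% in siNS 2. The place of the regions moved in opposite directions with score. In siNS 1 alone, 15.5% of the 16633 regions in bins 1 to 5 lay at gene ends (15.0 to 16.1%), and 30.3% of the 2133 regions above them (28.4 to 32.3%). In siNS 2 alone the shares were 8.97% of 11812 regions (8.46 to 9.504%) and 4.59% of 3444 regions (3.91 to 5.34%). Higher-scoring single-library regions were thus more often at a gene end in siNS 1 and less often in siNS 2. The rise in siNS 1 was not particular to single-library regions. Shared regions lay at gene ends in 18.6% of cases in bin 1 of siNS 1 and 62.2% in bin 10. By siNS 2 bins the share was 36.8% in bin 1, 54.5% in bin 8 and 38.9% in bin 10.

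**Figure D2:**
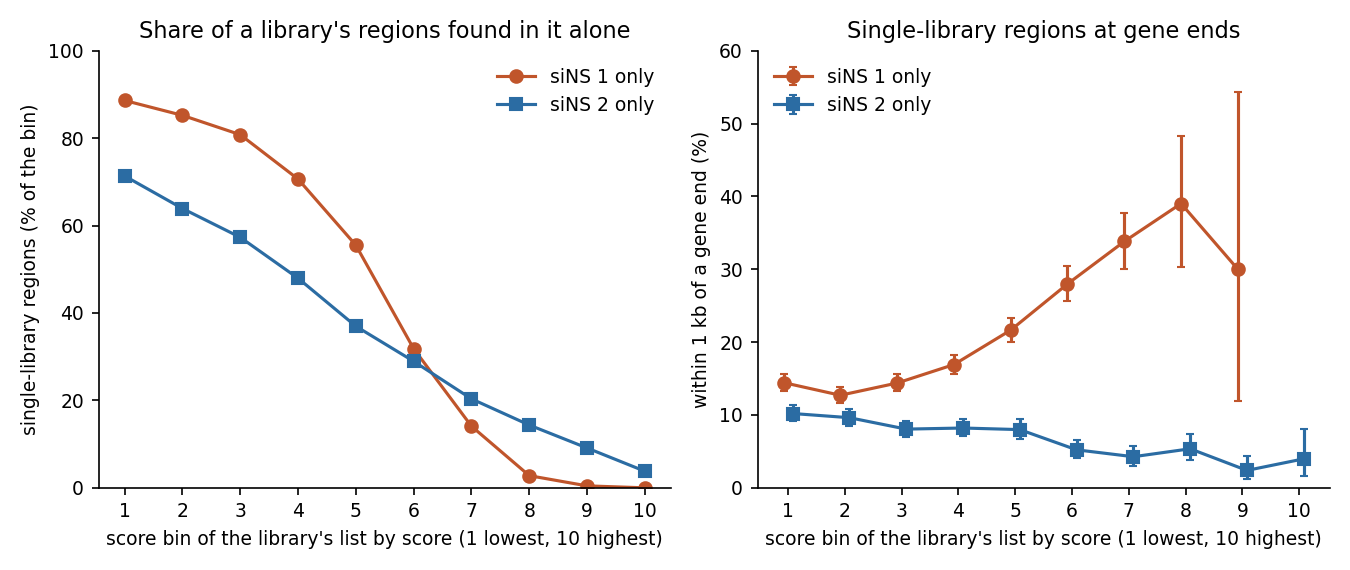
Left, share of a library's merged regions found in that library alone (percent) by score bin of its peak list, ranked by the authors' score; right, share of those single-library regions within 1 kb of a gene end (percent, bars are exact 95% binomial intervals). The share at gene ends is 39.0% in bin 8 for siNS 1 alone and 5.36% there for siNS 2 alone; bin 9 of siNS 1 holds 20 regions and bin 10 holds 0.

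The 20732 shared regions also ranked differently in the 2 control libraries, and 73.3% of them ranked higher in siNS 1. These ranks are taken over whole lists, which hold the members too. They are therefore not independent of the choice of members and are given as a description. At gene ends the median rank was at percentile 76.0 in siNS 1 and 61.4 in siNS 2, and 85.5% of 9982 regions ranked higher in siNS 1. Inside genes the medians were 63.8 in siNS 1 and 58.0 in siNS 2, and 62.7% of 6175 regions ranked higher in siNS 1. Between genes they were 61.6 in siNS 1 and 56.9 in siNS 2, and 61.2% of 4575 regions ranked higher in siNS 1. The median difference of rank, siNS 1 minus siNS 2, was 11.9 percentile points at gene ends, 5.40 inside genes and 4.91 between genes. Ranks are relative within each list and do not measure the amount of TLE3.

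Most single-library regions lay over 1 kb from any peak of the other control library. The gap to the nearest siNS 2 peak had a median of 7195.5 bp for siNS 1 alone, and the gap to the nearest siNS 1 peak 12581 bp for siNS 2 alone. Within 1 kb of the other library's peak were 3544 regions of siNS 1 alone, or 18.9% (18.3 to 19.5%), and 2375 of siNS 2 alone, or 15.6% (15.0 to 16.2%). Within 100 bp lay 474 regions of siNS 1 alone and 396 of siNS 2 alone, and within 10 bp 42 and 49 regions. On the other side of the rule, 316 of the 18063 shared regions made of 1 peak of each library owed their place to an overlap of up to 100 bp, and 27 to one of up to 10 bp. Over 100 kb from any peak of the other control library were 1050 regions of siNS 1 alone and 1967 of siNS 2 alone.

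**Figure D3:**
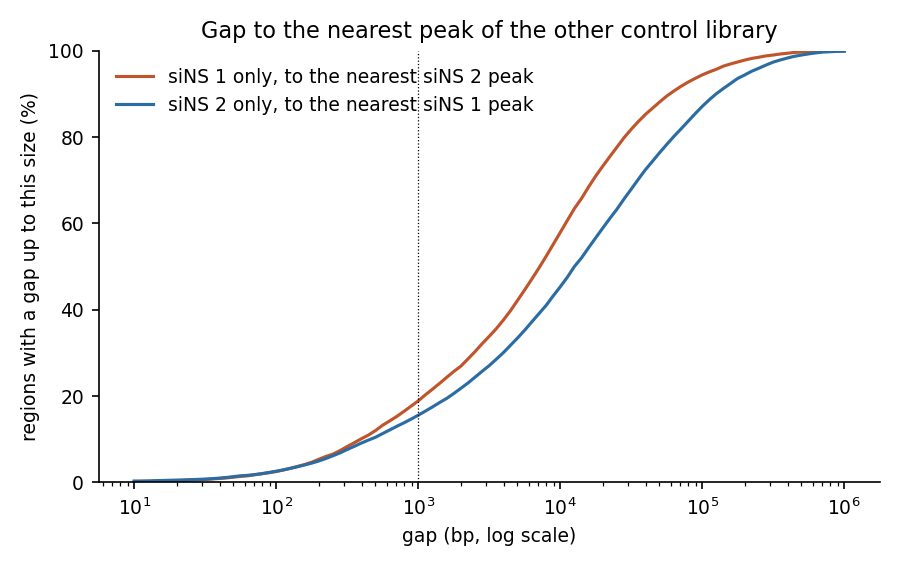
Cumulative share of single-library regions (percent) by the gap in bp, on a log axis, to the nearest peak of the other control library. At 1 kb, the dotted line, the curves stand at 18.9% for siNS 1 alone and 15.6% for siNS 2 alone, and at 10 kb at 57.9% and 45.3%.

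Regions close to a peak of the other control library were more often at gene ends than distant ones. Of the regions within 1 kb of such a peak, 31.1% of siNS 1 alone and 27.1% of siNS 2 alone lay at a gene end. Of the regions over 10 kb away, 13.6% of siNS 1 alone did, and 3.33% of siNS 2 alone. Members also lay near peaks of their own list: the median gap was 4514 bp in siNS 1 and 9502.5 bp in siNS 2, and 26.5% of siNS 1 alone and 18.3% of siNS 2 alone had a peak of their own list within 1 kb. A siFOXA1 peak lay within 1 kb of 2.28% of siNS 1 alone (2.07 to 2.50%) and 4.90% of siNS 2 alone (4.57 to 5.26%), against 2.32% of shared regions. The rule keeps out any region that touches a siFOXA1 peak, so these are neighbours only.

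The sets were spread differently over the chromosomes. Chromosome 19 held 1567 regions of siNS 1 alone and 556 of siNS 2 alone, a ratio of 2.82, against 1.23 over all chromosomes. The next highest ratios were on chromosome 22, with 924 and 433 regions (2.13), chromosome 17, with 1271 and 678 (1.87), and chromosome 16, with 1120 and 649 (1.73). Chromosome 13 had 199 regions of siNS 1 alone and 335 of siNS 2 alone (0.594), chromosome 18 had 266 and 372 (0.715), and chromosome 5 had 667 and 812 (0.821). The ratio was above 1 on 15 of 23 chromosomes. Across the 23 chromosomes it rose with protein-coding genes per Mb (Pearson r = 0.86, Spearman rank correlation 0.78, given as a description). The chromosomes also differ in length. Their copy number and base composition were not measured. Chromosomes 16, 17, 19 and 22 together held 26.0% of siNS 1 alone and 15.2% of siNS 2 alone, against 21.9% of shared regions.

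Regions of siNS 1 alone were also denser toward the ends of chromosomes. Within 5 Mb of a chromosome's outermost annotated gene lay 26.3% of siNS 1 alone (25.7 to 26.9%) and 10.1% of siNS 2 alone (9.62 to 10.6%), against 16.2% of shared regions. In the outermost 2 Mb there were 2654 regions of siNS 1 alone and 651 of siNS 2 alone, a ratio of 4.08. The ratio was 2.56 from 2 to 5 Mb, 1.48 from 5 to 10 Mb and 0.878 beyond 50 Mb. Protein-coding genes had 7.40% of their number in the outermost 2 Mb. Among windows of 1 Mb, the largest excess of siNS 1 was on chromosome 20 from 63000001 to 64000000, with 124 regions of siNS 1 alone, 12 of siNS 2 alone and 37 shared. The largest excess of siNS 2 was on chromosome 10 from 29000001 to 30000000, with 4 regions of siNS 1 alone and 24 of siNS 2 alone. Windows with more siNS 2 regions were the more numerous, 1416 against 1022 with more siNS 1 regions, so siNS 1 regions were concentrated in fewer windows. Without the outer 5 Mb of each chromosome the share at gene ends was 18.01% in siNS 1 alone and 7.74% in siNS 2 alone.

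**Figure D4:**
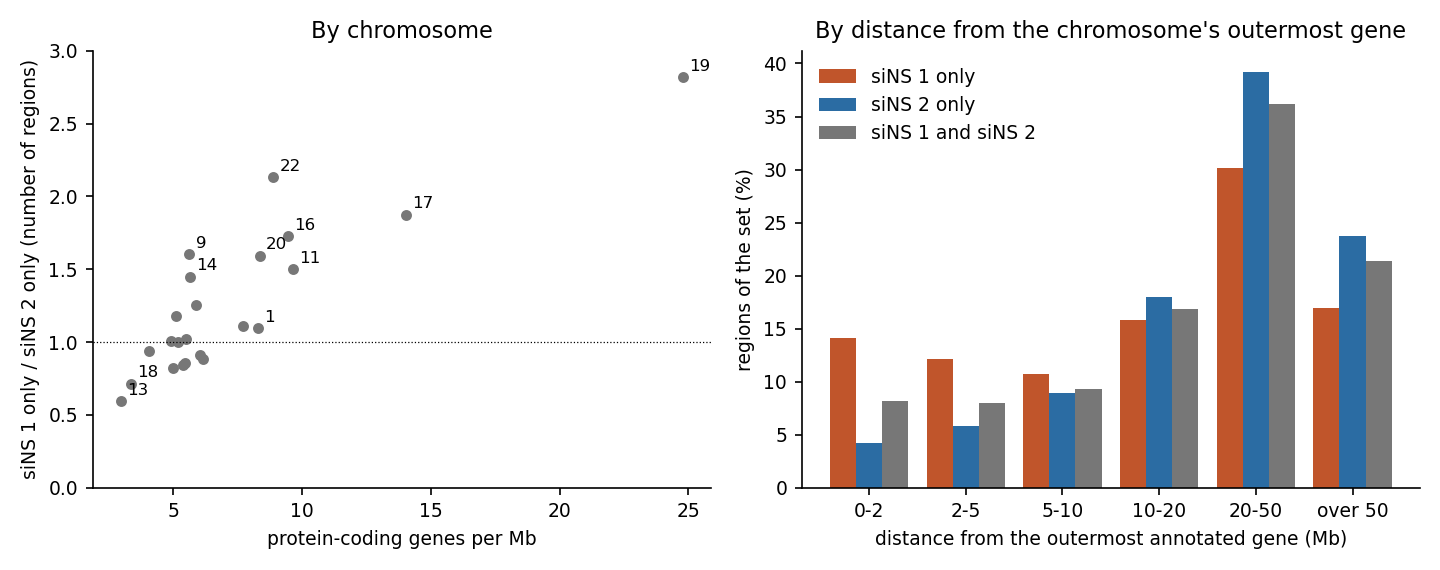
Left, ratio of the number of regions of siNS 1 alone to siNS 2 alone against protein-coding genes per Mb, 1 point per chromosome, with a dotted line at 1; right, share of each set (percent) by distance in Mb from the chromosome's outermost annotated gene. Chromosome 19 stands highest at 2.82, and the first 2 Mb hold 14.1% of siNS 1 alone and 4.27% of siNS 2 alone, against 8.23% of shared regions.

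The strongest regions of siNS 2 alone were far up their list, while those of siNS 1 alone were not. The 10 highest of siNS 1 alone scored 35.4 to 50.2 (percentiles 82.0 to 88.4), and the 10 highest of siNS 2 alone 138 to 242 (percentiles 97.9 to 99.4). The first of siNS 1 alone was at the end of TAF11 that holds its start (chromosome 6, 34887726 to 34888203), with a siNS 2 peak 876 bp away. Others lay at the ends of PTPN9 (chromosome 15, 75578901 to 75579772) and NDUFC2 (chromosome 11, 78079590 to 78080117), and inside GAA, the lysosomal alpha-glucosidase gene (chromosome 17, 80105663 to 80106115), and PCGF3, a Polycomb RING finger gene (chromosome 4, 742544 to 743225). Near TDRD5, a Tudor domain gene of the germ line, and ZNF469 lay 1 each, at 4598 bp and 2265 bp. The other 3, on chromosomes 4, 14 and 15, had no protein-coding gene within 100 kb.

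The first of siNS 2 alone, with a score of 242, was inside CD99L2, a cell surface glycoprotein gene (chromosome X, 150848817 to 150849596), 48304 bp from the nearest siNS 1 peak. Others were inside FAM81A, inside KSR2, a scaffold gene of RAS signalling (chromosome 12, 117507267 to 117508164), and inside RBFOX1, a splicing factor gene (chromosome 16, 5715498 to 5715990). Only the region 779 bp from KDF1, a keratinocyte differentiation gene (chromosome 1, 26947683 to 26948783), was at a gene end. GOT1, the cytosolic aspartate aminotransferase gene, was 19949 bp from another, and GALNT14, an O-glycosylation enzyme gene, 13876 bp. On chromosomes 6, 14 and 17 were 3 with no protein-coding gene within 100 kb, and the one on chromosome 6 was 511 bp from a siNS 1 peak. Thus 3 of the 10 strongest regions of siNS 1 alone were at gene ends and 1 of the 10 of siNS 2 alone.

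Regions were next assigned to the protein-coding gene that holds them or is nearest within 100 kb, which does not show regulation. Of 19970 protein-coding genes, 8318 had a region of siNS 1 alone (41.7%) and 7287 one of siNS 2 alone (36.5%), against 11746 with a shared region (58.8%). Genes with both kinds numbered 4031, which is 48.5% of the genes of siNS 1 alone and 55.3% of those of siNS 2 alone. A shared region was also assigned to 69.0% of the genes of siNS 1 alone and 72.4% of those of siNS 2 alone. For 1684 genes the assigned regions were all of siNS 1 alone, and for 1117 all of siNS 2 alone, among regions without a siFOXA1 peak. The genes that held the inside regions were longer in siNS 2 alone, with a median span of 128 kb, against 64.2 kb in siNS 1 alone and 79.1 kb for shared regions. Genes over 200 kb held 19.4% of the inside regions of siNS 1 alone and 35.5% of those of siNS 2 alone.

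The genes with the most regions of siNS 1 alone also had regions of siNS 2 alone, in smaller numbers. They were picked for these counts or for the excess of one set over the other, so the counts are a description. The genes named in this paragraph lie toward a chromosome end, where regions of siNS 1 alone were denser at large. The counts are not adjusted for this. The 1 Mb window that holds GATA5, chromosome 20 from 62000001 to 63000000, had 108 regions of siNS 1 alone and 19 of siNS 2 alone. GSE1, which encodes a subunit of histone deacetylase complexes, had 59 regions of siNS 1 alone and 5 of siNS 2 alone over 507 kb on chromosome 16, and 54 of the 59 lay inside the gene. TSNARE1 had 29 of siNS 1 alone and 2 of siNS 2 alone, RXRA, the retinoid X receptor alpha gene, 26 and 3, and RBFOX3, a neuronal splicing factor gene, 25 and 2. TAFA5, which encodes a secreted chemokine-like protein, had 26 and 4, with 0 shared regions. GATA5, a GATA factor gene of 12.5 kb, was assigned 23 and 4, and 22 of the 23 lay between genes. PRDM16, a zinc finger methyltransferase gene, had 21 and 2, GRAMD4 20 and 3, and LOC124905135 23 and 9.

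The genes with the most regions of siNS 2 alone were long. KCNMA1, the BK potassium channel gene of 768 kb, had 4 regions of siNS 1 alone and 20 of siNS 2 alone, all inside the gene. FSTL4 had 7 of siNS 1 alone and 18 of siNS 2 alone, KAZN 5 and 16, and SLIT3, a guidance ligand gene, 7 and 14. SETBP1 had 1 and 14, ARHGAP26, a GTPase-activating protein gene, 1 and 13, PITPNC1, a phosphatidylinositol transfer protein gene, 1 and 13, and BCAR3 2 and 13. TRAPPC9 had 13 and 16, ZBTB7C, a BTB zinc finger gene, 10 and 14, and ZFAT 4 and 14. SHANK2, a postsynaptic scaffold gene of 785 kb, stood high in both sets, with 25 and 14. Regions per gene are not adjusted for span or for distance from a chromosome end.

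Among 12 genes of luminal, corepressor and basal biology, single-library regions lay mostly away from gene ends, as they did over all members. The 12 had 24 regions of siNS 1 alone and 30 of siNS 2 alone, beside 43 shared regions, and 0 of the 24 and 2 of the 30 lay at a gene end, against 17.2% of all siNS 1 members and 7.98% of all siNS 2 members. Their percentiles within the lists ran from 2.69 to 88.7. XBP1, the secretory stress factor, had 2 regions of siNS 1 alone and 6 of siNS 2 alone. The strongest of these were 2 siNS 2 regions outside the gene on chromosome 22 (28813578 to 28814139, score 48.9, and 28819239 to 28820086, score 44.2), 13009 bp and 18670 bp from its span. GATA3, the luminal zinc finger factor, had 3 of siNS 1 alone and 6 of siNS 2 alone, and ESR1, the oestrogen receptor, 0 and 4. TLE3 itself had 2 and 2. Its strongest was a siNS 2 region inside the gene (chromosome 15, 70091573 to 70092430, score 27.1). FOXA1 had 1 of siNS 1 alone, 116 bp from a siNS 2 peak. ERBB2 had 2 and 0, SPDEF, an ETS factor, 4 and 3, HES1, a Notch-responsive repressor, 3 and 2, and TFAP2B, an AP-2 factor, 4 and 2. MYC had 1 and 3, and the basal keratin gene KRT5 none.

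Of 13 gene lists, 11 held at least as many regions of siNS 1 alone as of siNS 2 alone, and 2 held fewer. Over all genes 17407 assigned regions of siNS 1 alone and 13242 of siNS 2 alone gave a ratio of 1.31, and the median gene had 0 of each. The luminal identity list had 41 regions of siNS 1 alone and 62 of siNS 2 alone (0.661), in 21 and 24 of its 27 genes (77.8% and 88.9%, against 41.7% and 36.5% of all genes). KRT19, a luminal keratin gene, had 3 and 6. The receptor kinase list had 54 and 60 (0.900), in 19 and 22 of 30 genes (63.3% and 73.3%). In it SPRED2, a brake on ERK signalling, had 1 and 10, IGF1R 3 and 8, and AKT1 10 and 1. Single genes of a list thus leaned both ways. A shared region was assigned to 85.2% of luminal identity genes and 93.3% of receptor kinase genes, also above the 58.8% of all genes. High shares in these lists were therefore not particular to single-library regions. Counts for these and the other lists are not adjusted for gene span or for distance from a chromosome end.

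The Notch and Wnt lists had more regions of siNS 1 alone than of siNS 2 alone, in nearly the same number of genes. Notch genes with a region numbered 17 for siNS 1 alone and 15 for siNS 2 alone, of 25 (68% and 60%), and Wnt genes 17 and 16 of 26 (65.4% and 61.5%), against 41.7% and 36.5% of all genes. A shared region was assigned to 76% of Notch, 100% of Wnt and 88% of Groucho and corepressor genes, against 58.8% of all genes. For shared regions the share was 62.1% of DNA repair genes and 57.7% of neuronal genes. The Notch list had 58 of siNS 1 alone and 25 of siNS 2 alone (2.32), with medians of 2 and 1 per gene, and much of the excess came from NOTCH1 with 15 and 3 and the ligand gene JAG2 with 8 and 1. MAML3, a Notch coactivator gene, had 4 and 4. The Wnt list had 76 and 40 (1.90), with 15 and 5 at the ligand gene WNT7B, 11 and 0 at the coreceptor gene LRP5 and 6 and 4 at TCF7L2. The Groucho and corepressor list had 80 and 58 (1.38), in 17 and 15 of 25 genes (68% and 60%), with 15 and 11 at HDAC4 and 9 and 10 at CTBP2. DNA repair genes had 19 and 8 (2.38), in 12 and 5 of 29 genes. Their share for siNS 1 alone, 41.4%, was near that of all genes, and their share for siNS 2 alone, 17.2%, was under the 36.5% of all genes. Among them were 3 and 0 regions at each of ERCC2 and FANCA and 0 and 3 at BRCA1. Neuronal genes, whose median span was 377 kb, had 74 and 56 (1.32), in 16 and 18 of 26 genes (61.5% and 69.2%), with 25 and 2 at RBFOX3 and 4 and 10 at RBFOX1, and 6 and 4 at NRXN3.

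**Figure D5:**
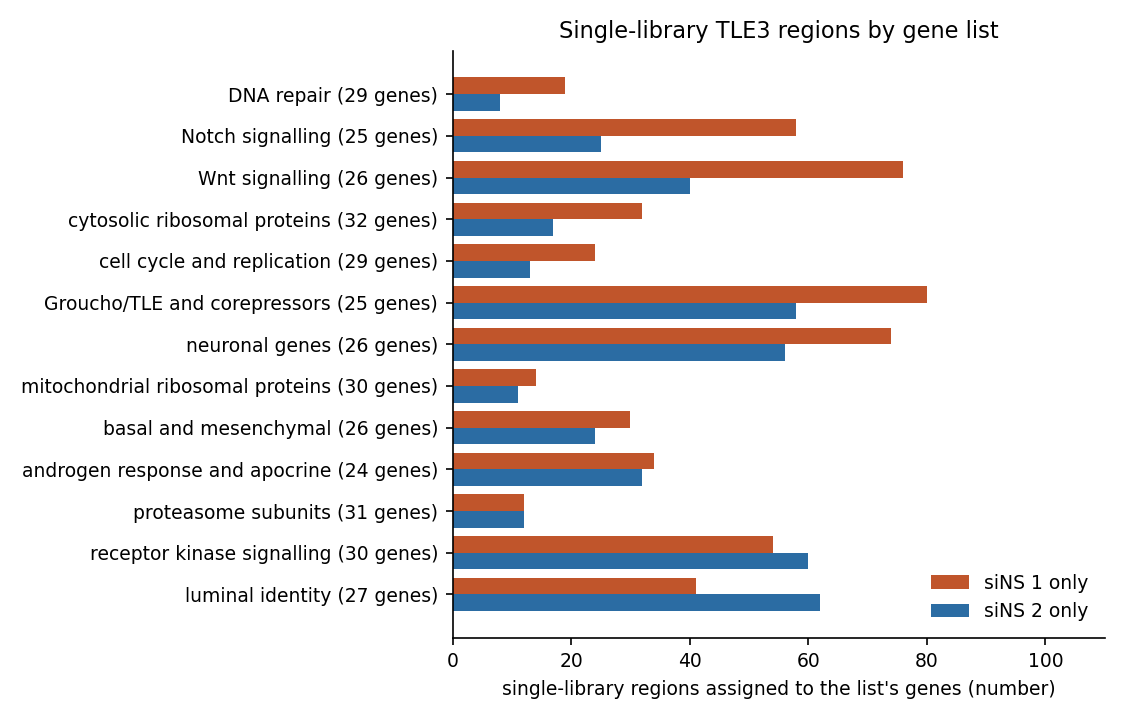
Number of single-library TLE3 regions assigned to the genes of each of 13 lists, siNS 1 alone above siNS 2 alone, ordered by their ratio. The luminal identity list has 41 regions of siNS 1 alone and 62 of siNS 2 alone, and the Notch list 58 and 25.

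The remaining lists, of housekeeping, cell cycle, hormone-response and lineage genes, differed among themselves. Of all genes, 41.7% had a region of siNS 1 alone, 36.5% one of siNS 2 alone and 58.8% a shared region. A shared region was assigned to 77.4% of proteasome, 84.4% of cytosolic ribosomal protein and 72.4% of cell cycle genes. It was assigned to 70.8% of androgen response and apocrine genes and 69.2% of basal and mesenchymal genes. Mitochondrial ribosomal protein genes had 14 regions of siNS 1 alone and 11 of siNS 2 alone, in 8 and 8 of 30 genes (26.7% each, under both shares of all genes), and 83.3% had a shared region. MRPS9 had 3 and 2, MRPL20 3 and 1, and MRPS18A 1 and 3. Proteasome subunit genes had 12 and 12, in 8 and 8 of 31 genes (25.8% each, also under both), with 2 and 4 at PSMA6, 3 and 1 at PSMB7 and 0 and 2 at PSMA5. Cytosolic ribosomal protein genes had 32 and 17 (1.88), in 15 and 9 of 32 genes (46.9% and 28.1%), with 6 and 1 at each of RPL3 and RPL38 and 2 and 6 at RPLP1. Cell cycle genes had 24 and 13 (1.85), in 14 and 8 of 29 (48.3% and 27.6%), with 3 and 5 at MCM5, 6 and 1 at CCND1 and 2 and 1 at E2F2. Androgen response and apocrine genes had 34 and 32 (1.06), in 15 and 14 of 24 (62.5% and 58.3%), with 8 and 6 at PMEPA1, 6 and 3 at NDRG1 and 3 and 5 at ZBTB16. Basal and mesenchymal genes had 30 and 24 (1.25), in 19 and 13 of 26 (73.1% and 50%), with 6 and 1 at EN1, 2 and 4 at EGFR and 3 and 3 at TWIST2.

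The promoters under the 2 sets differed in base composition. Of 22131 promoter windows of protein-coding genes (250 bases before to 50 after a start), 1187 were overlapped by a region of siNS 1 alone and 366 by one of siNS 2 alone, against 10622 by a shared region. These groups overlap. A shared region also lay on 64 of the siNS 1 windows and 29 of the siNS 2 windows, and 9 windows were in both sets. Windows under siNS 1 alone had a median GC content of 63.0% and 23 CpG dinucleotides, and those under siNS 2 alone 56.3% and 16. Windows under shared regions had 67.3% and 28, all windows 62.3% and 21, and the 9380 windows with no peak in any library 53.0% and 6. The ratio of observed to expected CpG was under 0.6 in 23.6% of windows under siNS 1 alone and 39.3% under siNS 2 alone, against 9.86% under shared regions and 37.8% of all windows. The windows of the printed promoters overlapped in GC content, with 48.3% at TAF11, 75.3% at PTPN9 and 61.0% at NDUFC2-KCTD14 for siNS 1 alone, and 52.3% at FAM107B, 54.3% at BCAR3 and 42.0% at CXCL13 for siNS 2 alone.

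Short motifs were searched in these windows on both strands. The GC box was read as GGGCGG, the ETS core as CCGGAAG, the CCAAT box as its own letters, the E-box as CACGTG and the core of the CRE as TGACG. The TATA box was read as TATAAA, the AP-1 site as TGANTCA, and the forkhead site in the 2 forms TGTTTAC and TGTTTGC. The GATA site was read as AGATAA, the TCF/LEF site as CTTTGAT and the RUNX site as TGTGGT. The GC box was in 63.7% of windows under siNS 1 alone and 48.9% under siNS 2 alone, against 77.1% under shared regions and 56.3% of all windows. The TATA box was in 3.79% under siNS 1 alone and 9.02% under siNS 2 alone, against 3.98% under shared regions and 9.46% of all. The forkhead letters TGTTTAC were in 2.44% under siNS 1 alone and 4.92% under siNS 2 alone, against 2.04% under shared regions and 2.85% of all. TGTTTGC was in 2.78% under siNS 1 alone and 4.92% under siNS 2 alone, against 2.28% under shared regions and 3.40% of all. For siNS 2 alone each of these forkhead shares rests on 18 of 366 windows. Windows with no peak in any library held TGTTTAC in 3.65% and TGTTTGC in 4.65%, so such shares also occur without a TLE3 peak. The ETS letters were in 19.8% under siNS 1 alone and 16.9% under siNS 2 alone, against 19.4% under shared regions and 12.8% of all. CCAAT was in 37.0% and 38.3%, against 34.0% under shared regions and 34.6% of all. The E-box was in 8.76% under siNS 1 alone and 4.37% under siNS 2 alone, against 8.34% of all windows, and AP-1 in 4.55% and 7.10%, against 6.15%. The CRE letters were in 32.3% under siNS 1 alone and 29.8% under siNS 2 alone (27.9% of all), the GATA site in 4.89% and 6.01% (7.88%), TCF/LEF in 1.77% and 3.01% (1.99%) and RUNX in 9.77% and 13.4% (11.3%). Windows under shared regions held the E-box in 10.6%, AP-1 in 3.59% and the CRE letters in 34.7%. They held the GATA site in 3.48%, TCF/LEF in 1.02% and RUNX in 7.99%. In the printed promoters the GC box matched 4 times at PTPN9 and 1 time at NDUFC2-KCTD14, TGTTTAC 1 time at TAF11 and TGTTTGC 1 time at CXCL13, and the TATA letters 3 times at CXCL13. Matches that share letters on opposite strands, as in FAM107B, were each counted. A match describes letters only.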

How the data were processed

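TLE3 ChIP-seq peaks of 4 libraries of MDA-MB-453 cells were used, grouped and numbered by the sample titles. For siFOXA1 2 the name of the deposited list gives a different replicate number from the title, which was followed. The authors deposited 1 headerless list per library with chromosome, start, end, name and a score per peak. Per the submitters' processing notes reads were handled with MACS2, SAMtools, BWA 0.7.5a and Trim Galore on hg38. No settings, and no role of the inputs, were given in the sources used here. Depth is unknown, because no list holds counts. The score is the authors' deposited value, of unstated definition, and was used for ranks within a list only.

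Mitochondrial peaks (3 to 9 per list) were left out, and no peak lay on Y. Positions are 1-based. Genes (19970 protein-coding on chromosomes 1 to 22 and X) and promoter sequences came from RefSeq on GRCh38.p14, the same primary assembly as hg38. Gene ends are both ends of a gene's span. The start sites come from the promoter table and were not used for chromosome 8. The promoter windows belong to 15811 of the 19970 protein-coding genes, so starts were not available for every gene. Exons, introns and UTRs were not separated. All 357 listed symbols matched.

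The members, gene lists and comparisons were chosen with earlier results of these data known. Named items follow a rule: the 10 strongest regions and 10 genes with the most regions of each set, the 5 genes with the largest excess each way, 12 fixed genes, 3 genes per list and 3 promoters per set, the last with none from chromosome 8. Of these, 2 genes are not reported here by name. Leaving out chromosomes 16, 17, 19 and 22, or the outer 5 Mb, was chosen after seeing the data. The p-values are the smallest that so few libraries allow, so they say little about the spread between libraries. Python 3.11.15, numpy 2.4.6, pandas 2.3.3, scipy 1.17.1, matplotlib 3.10.9 and bedtools 2.31.1 served for the analysis. The merging was tested on simulated data and recovered the class of 7000 of 7000 simulated regions in 7 classes, and bedtools gave the same 2 sets from the deposited lists.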

Additional observations from a re-analysis of the deposited data

How the results depend on the processing

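The excess of siNS 1 alone over siNS 2 alone at gene ends was positive in 12 of 12 settings (7.01 to 55.5 percentage points, 9.24 as reported). The difference between siNS and siFOXA1 single-library regions was 11.2 points, and taken within each replicate number (replicate block) it was also 11.2, with 15.5 for replicate 1 and 6.86 for replicate 2; an exact sign-flip permutation over the 2 pairs cannot go below p = 0.5. The labels do not say that equal numbers share a culture or day. The numbers of regions of siNS 1 alone and siNS 2 alone were 15334 and 12838 with peaks widened by 250 bp on each side. They were 19821 and 16566 with an overlap of at least 50% of the shorter peak. When peaks under each list's median score were dropped they were 7287 and 5798. With lists cut to the length of the shortest, where fewer peaks enter, they were 4356 and 2286. Leaving out each library in turn gave 18793 to 40750 and 16015 to 38454 regions, 17.2 to 33.6% and 7.71 to 32.7% of them at gene ends. The share at gene ends was 18.2% of siNS 1 alone and 9.79% of siNS 2 alone with an overlap of at least 50% of the shorter peak, 13.9 and 4.87% with peaks widened by 250 bp, 44.8 and 7.07% above the median score, and 65.1 and 9.54% with equal list lengths. The share was 11.8 and 4.83% within 500 bp of a gene end, 38.1 and 21.9% within 5 kb, and 24.9 and 14.4% with the ends of all annotated genes. In settings chosen after seeing the data, it was 16.3 and 7.05% without chromosomes 16, 17, 19 and 22, and 18.01% of siNS 1 alone without the outer 5 Mb. The share within 1 kb of a peak of the other control library was 23.1 and 20.6% with the 50% overlap, 5.84 and 4.85% with widened peaks, 11.3 and 6.17% above the median score, and 4.29 and 3.63% with equal lists. It was 57.9 and 45.3% for gaps of up to 10 kb, 17.9 and 13.9% without chromosomes 16, 17, 19 and 22, and 14.4% of siNS 2 alone without the outer 5 Mb. The causes of these shifts were not tested. Promoter, motif, gene span, gene list and shared-rank values were computed under the reported setting alone. Without read counts, a region missing from a list cannot be told apart from one just under the calling threshold.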
